A study of Mus musculus with 22 samples.

Results

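The 39 Hox genes of the Hoxa, Hoxb, Hoxc and Hoxd clusters were measured in MC38 cells, in skin and in the tumors that MC38 cells formed in mice. They are every symbol among the 46882 listed genes that consists of Hoxa, Hoxb, Hoxc or Hoxd and a number, so that antisense and other noncoding genes of the clusters were left out. In GRCm38, 11 of them form the Hoxa cluster (chr6:52155590-52260880), 10 the Hoxb cluster (chr11:96194316-96368256), 9 the Hoxc cluster (chr15:102921103-103036852) and 9 the Hoxd cluster (chr2:74668310-74765142). By paralog number, 8 members carry a number from 1 to 3, 15 from 4 to 8 and 16 from 9 to 13.

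Hox genes encode homeodomain transcription factors that give cells their position along the body. Within a cluster the genes lie in the order in which they are used from head to tail, so that low paralog numbers mark anterior and high numbers posterior levels and, in the limb, its far end. Adult fibroblasts keep the Hox code of the site they come from, whereas single members have later duties of their own, such as Hoxc13 in the hair follicle.

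MC38 is a mouse line from a chemically induced colon carcinoma of C57BL/6 mice, and the study followed how the immune system shapes its tumors. The MC38 samples (2 libraries) are cells at day 0. Female mice injected at 8 to 12 weeks of age carried subcutaneous flank tumors. They were wild-type C57BL/6N (WT; 3 tumors at day 23 and 3 at day 46) or B6.129S7-Rag1tm1Mom/J, labelled RAG1-/- and without mature T and B cells (3 tumors at day 13 and 3 at day 23). Normal skin (2 libraries, day 23) came from wild-type C57BL/6N mice given the same age range, and neither the labels nor the methods give its body site. Each excised tumor was divided, so a library holds 1 piece with all its tumor, stromal and immune cells, in which fewer cells of a type and less RNA per cell cannot be told apart.

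The libraries were made with QuantSeq, which reads each transcript near its 3′ end, and held 5589151 to 26134241 reads on genes. Levels are normalized counts per gene. They are not divided by gene length, because 1 transcript gives 1 end, and levels of different genes are set side by side on that scale. Depending on the library, 3 reads (the floor used here) were worth 1.33 to 6.38 normalized counts, and floors and intervals cover counting error only. Rag1 itself had 0 or 1 read in the WT tumors and 1 to 12 reads in the tumors labelled RAG1-/-, which goes against the label but may come from sequence outside the deleted part and then checks nothing. Igkc, an antibody chain of B cells, had 32 to 387 reads in the WT tumors and 0 to 4 in those labelled RAG1-/-. Of 12 markers of colon epithelium, such as Cdx2, Vil1 and Krt20, the summed level in the MC38 libraries was 8.56 and 17.6 normalized counts, and 5 markers had no read in either, so the labelled colon origin does not show in these genes. The labels number the replicates without saying whether the cultures were separate, and p-values measure the spread between these samples, which may be technical.

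MC38 cells used a broad Hox code that reached its highest paralog numbers in all 4 clusters. Above 5 normalized counts, averaged over the group, were 26 of the 39 members. Paralogs 9 to 13 made up 59.2% of all Hox normalized counts in each MC38 library, with 95% exact binomial intervals of 58.0% to 60.4% and 57.9% to 60.5%. The Hoxb cluster was nearly silent in these cells and gave 1.18% and 0.989% of the Hox counts, against 35.7% to 37.9% for Hoxa, 38.5% to 40.3% for Hoxc and 22.4% to 22.9% for Hoxd.

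**Figure D1:**
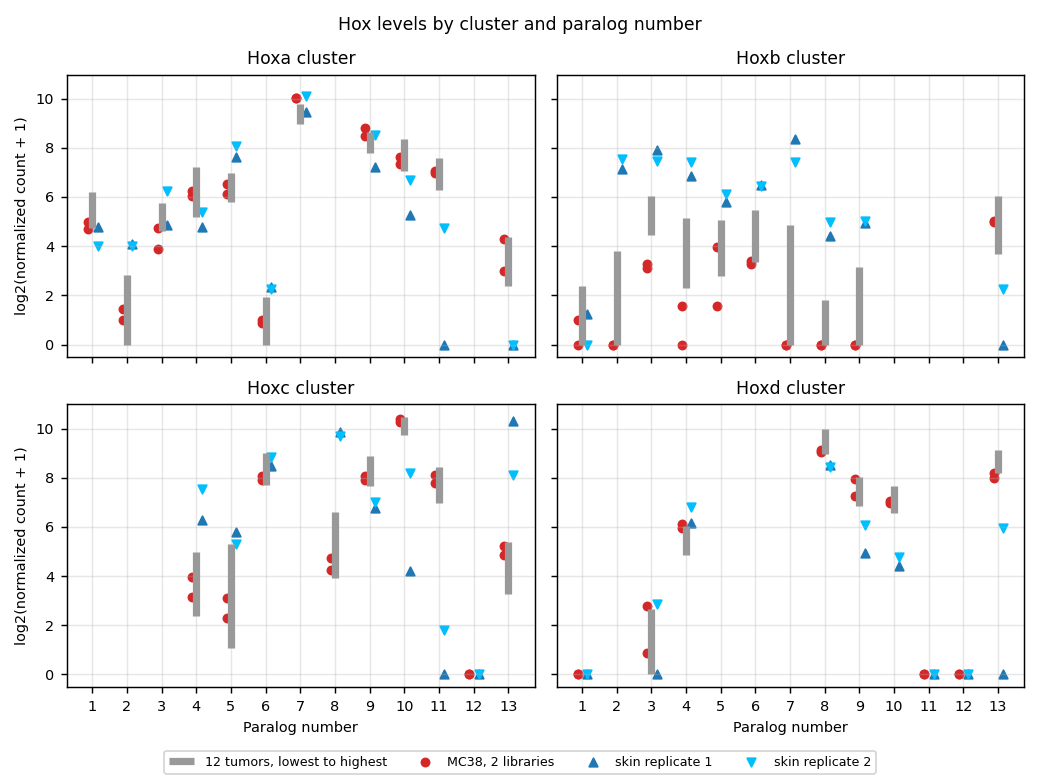
Level of each member as log2(normalized count + 1), by paralog number, with a panel for each cluster. Red points are the 2 MC38 libraries, triangles the skin libraries drawn apart, and grey bars run from the lowest to the highest of the 12 tumors. The grey bars lie near the red points at paralogs 9 to 13, and the skin triangles lie far above both in most of the Hoxb cluster.

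The member with the highest level in MC38 was Hoxc10, a gene of the lumbar level and hind limb, at 1224 and 1329.5 normalized counts. Hoxa7, a trunk gene, followed at 1045 and 1046, and Hoxd8 at 556 and 531. The replicates lay closer to each other than to the next gene in each case. At the far posterior end, Hoxd13, a gene of digits and the genital region, stood at 294 and 251, and Hoxc11 at 276 and 219. Hoxa11, a gene of the forearm and lower leg and of the uterus, reached 134 and 124, and Hoxb13, known from the tail and the distal gut and prostate, 31.7 and 30.3. Hoxa13 was low, at 6.84 and 18.6. All 4 genes of paralog number 13 were therefore read in MC38, and Hoxb13 was the only Hoxb gene above 10 normalized counts when the libraries were averaged. Hoxb2, Hoxb7, Hoxb8 and Hoxb9 had 0 reads in both MC38 libraries.

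In the Hoxd cluster a gap separated expressed neighbours. Hoxd10, at 124 and 131 normalized counts in MC38, and Hoxd13 flank Hoxd11 and Hoxd12, which had 0 reads in all 16 libraries, as had Hoxd1 and Hoxc12. The library with the lowest floor, the third tumor of day 23 labelled RAG1-/-, thus allowed at most 1.33 normalized counts of each. The 250 bases before the annotated start are printed for these 4 neighbours because they are the clearest case of adjacent members on opposite sides of detection. They come from RefSeq's table for GRCm38.p6, plus strand, in lower case with every CG in capitals, and 22 of the 39 members had an entry there, some with more than 1 start. The positions are chr2:74667975-74668224 for Hoxd13, chr2:74674763-74675012 for Hoxd12, chr2:74682073-74682322 for the CG-rich one of the Hoxd11 starts, and chr2:74691641-74691890 for Hoxd10.
Hoxd13: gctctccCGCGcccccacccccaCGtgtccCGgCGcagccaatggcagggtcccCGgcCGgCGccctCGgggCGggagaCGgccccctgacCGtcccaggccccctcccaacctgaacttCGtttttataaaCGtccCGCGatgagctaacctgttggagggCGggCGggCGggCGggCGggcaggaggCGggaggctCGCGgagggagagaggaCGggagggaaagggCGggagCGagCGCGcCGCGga
Hoxd12: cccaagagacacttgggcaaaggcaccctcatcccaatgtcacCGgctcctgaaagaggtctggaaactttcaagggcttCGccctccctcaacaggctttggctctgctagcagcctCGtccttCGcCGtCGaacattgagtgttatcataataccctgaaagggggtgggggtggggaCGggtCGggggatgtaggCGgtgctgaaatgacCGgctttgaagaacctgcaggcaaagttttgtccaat
Hoxd11: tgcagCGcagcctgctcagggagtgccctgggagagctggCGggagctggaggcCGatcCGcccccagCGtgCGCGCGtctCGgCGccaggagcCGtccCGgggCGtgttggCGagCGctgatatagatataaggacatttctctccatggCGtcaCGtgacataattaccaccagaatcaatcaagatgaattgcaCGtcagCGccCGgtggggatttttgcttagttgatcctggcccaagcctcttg
Hoxd10: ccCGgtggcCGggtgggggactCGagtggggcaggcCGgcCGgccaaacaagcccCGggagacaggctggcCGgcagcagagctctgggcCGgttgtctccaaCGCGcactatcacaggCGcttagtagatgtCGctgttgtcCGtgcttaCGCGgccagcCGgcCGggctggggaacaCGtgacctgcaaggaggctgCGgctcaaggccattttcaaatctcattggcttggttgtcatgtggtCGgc

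CG pairs numbered 31 before Hoxd13, 10 before Hoxd12, 20 before this Hoxd11 start and 20 before Hoxd10, whereas another Hoxd11 start (chr2:74679308-74679557) had 2. The number of CG pairs thus did not separate the read from the unread neighbours. Over the 24 Hox promoters of this kind the median was 12.5 and 62.5% held at least 10, against a median of 6.00 and 37.8% among all 32851 promoters of the table. The Hox-Pbx motif TGATNNAT, searched on both strands, occurred in 4 of the 24 and in 7.68% of all promoters, and the Cdx motif TTTATNG in 2 of the 24 and in 9.81%. A match describes letters only.

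Skin carried a more anterior and trunk-like code that included the whole middle of the Hoxb cluster. Above 5 normalized counts on average were 29 members, among them every Hoxb gene from Hoxb2 to Hoxb9. Paralogs 4 to 8 made up 61.6% of the Hox counts in skin replicate 1 and 67.9% in replicate 2, and paralogs 9 to 13 made up 30.2% and 23.9%. Hoxc8, which marks the lower thorax, was at 929.7 and 824, Hoxb7 at 328 and 172 and Hoxb3 at 242 and 177. Hoxc13, a hair follicle gene that acts on hair keratins, was high in skin at 1275 and 273.

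**Figure D2:**
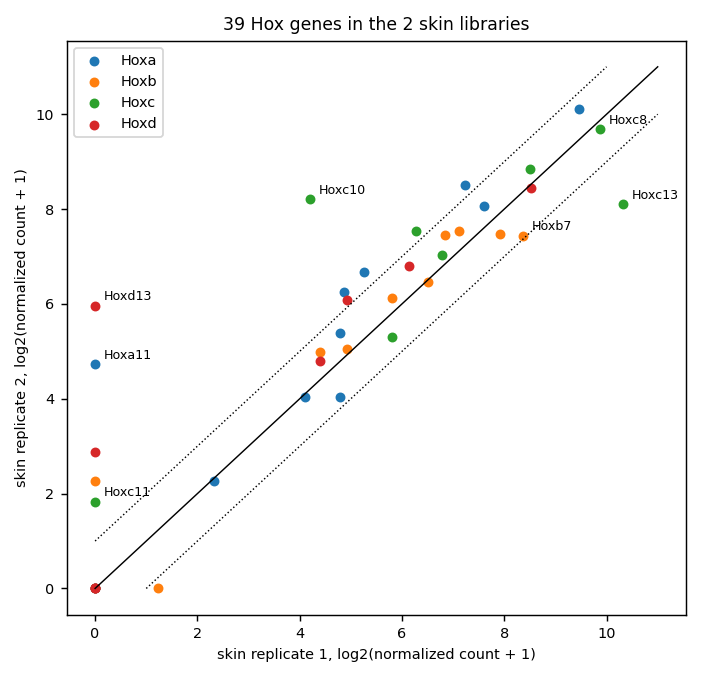
Each point is 1 of the 39 members in skin replicate 1 (x axis) and replicate 2 (y axis), as log2(normalized count + 1), coloured by cluster. The full line marks equal levels and the dotted lines a difference of 1 on the log2 scale. Hoxd13 and Hoxa11 lie on the y axis, with 0 reads in replicate 1, Hoxc10 lies far above the lines and Hoxc13 below them.

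The skin libraries differed from each other in posterior, middle and anterior members, so they are given apart. Hoxc10 was at 17.4 normalized counts in replicate 1 and 294 in replicate 2, a ratio of 16.9 (95% interval 9.69 to 32.2, from the 13 and 231 reads). Hoxd13 had 0 reads in replicate 1 and 48 in replicate 2 (61.2 normalized counts), and Hoxa11 had 0 and 20 (25.5 normalized counts). In the other direction, Hoxc13 in replicate 2 was 0.214 of its level in replicate 1 (0.184 to 0.248), and Hoxb7 was 0.524 (0.422 to 0.650). Among anterior and middle members, Hoxa3 had a ratio of 2.67 (1.60 to 4.63) and Hoxc4 one of 2.44 (1.78 to 3.37). These ratios compare 2 libraries with each other.

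Over the 39 members, the interval of the ratio lay above 1 for 14, below 1 for 4 and spanned 1 for 16, and 5 had 0 reads in both skin libraries. Among members with at least 20 normalized counts in both, 6 of 24 (Hoxa3, Hoxa9, Hoxa10, Hoxc4, Hoxc13, Hoxd9) differed by more than 2-fold, compared with 8.64% of the 13530 genes of that level. Genes without a read in skin replicate 1 that averaged 100 normalized counts or more in MC38 numbered 38, of which 3 were members (Hoxa11, Hoxc11, Hoxd13). All 38 had reads in skin replicate 2, and the 35 that are no Hox genes stood there at a median of 5.69% of their MC38 level (0.912% to 30.2%). With the skin libraries exchanged, 1 such gene was found. The excess of replicate 2 over replicate 1 was 22.4% of the MC38 level for Hoxd13, 21.7% for Hoxc10, 19.7% for Hoxa11 and 1.03% for Hoxc11. The skin libraries also differed in the summed level of 7 leukocyte markers (3668 and 11764 normalized counts), while 8 keratinocyte markers summed to 396595 and 387654. Of the other positional transcription factors listed below, Msx2 was at 1778 and 237 in replicates 1 and 2 and Lhx2 at 895 and 606. Shox2 went the other way, at 169 and 320.0. The part of these differences in the Hox values was not tested. Every comparison with skin rests on these 2 libraries, and values without 1 of them are given for the member counts and for members whose call or size depended on it.

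MC38 cells were compared with skin since the study set its cell line against normal skin. Posterior members stood above their skin level in MC38, and anterior and middle genes, above all those of Hoxb, were lower. Of 32 members tested, 8 were higher and 15 lower with an adjusted p-value under 0.05 (limma on log2(normalized count + 1), Benjamini-Hochberg over 16780 genes). The background is high in this comparison, with 20.8% of all tested genes higher and 41.2% lower. The median log2 fold change was -0.54 for the members and -0.40 for all genes. By position, 7 of the 13 tested members with paralog numbers 9 to 13 were higher, 2 lower and 4 not past the threshold, with a median of 2.41. Among paralogs 4 to 8, 1 of 14 was higher and 10 were lower (median -2.99), and among paralogs 1 to 3 none of 5 was higher and 3 were lower (median -2.85). Of the Hoxb cluster 8 of 9 tested members were lower, and Hoxb13 was higher. The 7 members under the filter of 5 normalized counts on average were Hoxa6, Hoxb1, Hoxd3 and the 4 without any read.

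**Figure D3:**
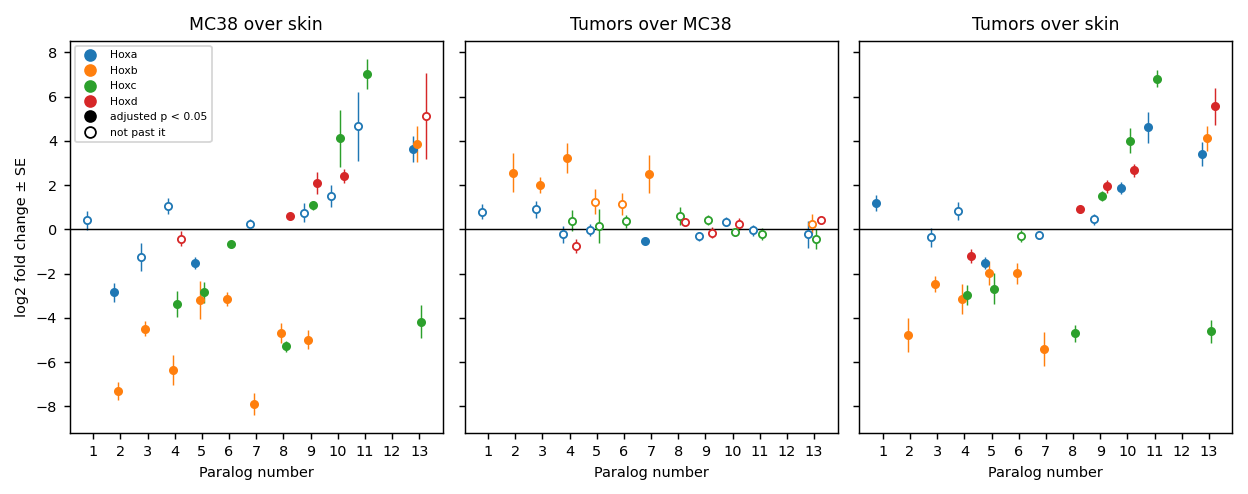
Fitted log2 fold change (scale of log2(normalized count + 1)) with its standard error for each tested member, by paralog number, in 3 comparisons; filled points passed an adjusted p-value of 0.05. MC38 over skin and tumors over skin are mostly negative up to paralog 8 and mostly positive from 9 on, with Hoxc13 and, for MC38, Hoxb9 as low points at the posterior end. Tumors over MC38 lie closer to 0, with 4 filled Hoxb points above it and Hoxa7 below.

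Among the genes that rose, Hoxc11 stood at 276 and 219 normalized counts in MC38 and at 0 and 2.55 in skin (log2 fold change 7.03, SE 0.69, adjusted p = 0.00105 from limma). With 2 reads in skin the ratio was 191, with a counting interval of 52.5 to 1579. Hoxd10 rose by 2.41 (SE 0.31, adjusted p = 0.00226), from 20.1 and 26.8 in skin. Neither gene's groups overlapped, and both passed in all 15 alternatives. Hoxc10 had a log2 fold change of 4.11 (SE 1.30, adjusted p = 0.0427), which became 6.12 (adjusted p = 0.00701) without skin replicate 2 and 2.11 (adjusted p = 0.0221) without replicate 1. It passed in 9 of 15 alternatives and missed the threshold without MC38 replicate 1 (adjusted p = 0.107) and without MC38 replicate 2 (adjusted p = 0.0876).

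Hoxb13 rose by 3.86 (adjusted p = 0.0129), Hoxd9, a gene of the limb and lower trunk, by 2.10 (adjusted p = 0.0165), Hoxc9 by 1.09 (adjusted p = 0.00932) and Hoxd8 by 0.60 (adjusted p = 0.0204), all from limma. The value for Hoxb13 was 2.73 (adjusted p = 0.0211) without skin replicate 1 and larger than 3.86 without replicate 2 (adjusted p = 0.00439). Hoxb13, Hoxc9 and Hoxd8 missed the threshold without MC38 replicate 1 (adjusted p = 0.0668, 0.0618 and 0.166) and without MC38 replicate 2 (adjusted p = 0.0581, 0.0817 and 0.133). Hoxd9 missed it without MC38 replicate 2 (adjusted p = 0.0742) and without skin replicate 1 or 2 (adjusted p = 0.150 and 0.0807), and Hoxc9 also without skin replicate 1 (adjusted p = 0.0572). Hoxa13 had 27 reads in MC38 and 0 in skin and was at least 6.29-fold higher, with the floor of 3 reads taken over the group (adjusted p = 0.00539, or 0.117 and 0.116 without skin replicate 1 or 2, and under the filter without MC38 replicate 2). Hoxa11 and Hoxd13 did not pass (log2 fold change 4.66, adjusted p = 0.0505 and 5.11, adjusted p = 0.0720). Without skin replicate 2 they did, with 7.02 (adjusted p = 0.0112) and 8.09 (adjusted p = 0.0145), and the count of higher members was 10. They also passed without skin replicate 1, with 2.30 (adjusted p = 0.0368) and 2.13 (adjusted p = 0.0405).

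The genes that fell were led by Hoxb7 and Hoxb2, both with 0 reads in MC38. Hoxb7 had 380 reads in skin and was at least 181-fold lower in MC38 (adjusted p = 2.85e-04 from limma), and Hoxb2, a hindbrain gene also used in skin, had 247 and was at least 118-fold lower (adjusted p = 2.30e-04). On the same floor Hoxb9 was at least 22.4-fold and Hoxb8 at least 18.6-fold lower (adjusted p = 6.47e-04 and 0.00102 from limma). Genes with 0 reads in MC38 passed the filter only through skin, so they could only be called lower. Hoxb4, with 2 reads in MC38 and 221 in skin, was 158-fold higher in skin (counting interval 43.3 to 1314, adjusted p = 0.00119). Hoxc8 fell by 5.29 on the log2 scale (SE 0.26, adjusted p = 1.86e-04), from 929.7 and 824 to 18.0 and 25.4, and Hoxb3 by 4.50 (SE 0.34, adjusted p = 4.76e-04). Hoxc13 fell by 4.17 (SE 0.75, adjusted p = 0.00710), against the direction of the other tested members of its paralog number. It stood at 35.9 and 28.4 in MC38, below either skin library, and its log2 fold change was -3.06 (adjusted p = 0.0440) without skin replicate 1 and -5.28 (adjusted p = 0.0247) without replicate 2. The keratinocyte markers summed to 308 and 330.4 in MC38, far below skin (396595 and 387654). The part of such cells in the Hoxc13 values was not tested. Each of these 8 genes except Hoxb4 passed in every alternative run, and Hoxb4 missed the threshold without skin replicate 1 (adjusted p = 0.0737) and without replicate 2 (adjusted p = 0.0799).

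The count depends on single libraries. It was 10 higher and 8 lower without skin replicate 2, 7 and 8 without skin replicate 1, 4 and 14 without MC38 replicate 1 and 2 and 13 without MC38 replicate 2. It also depends on the scale. Rescaled to the same upper quartile, the median of all genes moved by 0.50, 49.1% of all called genes were higher in place of 33.5%, and 11 members were higher and 14 lower. None of the 23 called members changed sign there, or at equal totals.

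The Hox profile of the tumors resembled that of the injected cells. On average over the 12 tumors 29 members were above 5 normalized counts, and paralogs 9 to 13 made up 54.9% to 62.8% of the Hox counts (median 59.5%). The correlation across the 39 members on the log2 scale averaged 0.939 (0.896 to 0.971) over the 24 pairs of a tumor and an MC38 library, beside 0.979 between the MC38 libraries. It averaged 0.512 between tumors and skin and 0.399 between MC38 and skin, where replicate 1 of skin gave 0.273 and replicate 2 gave 0.524. These values describe profiles that share one normalization and 4 members without reads.

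**Figure D4:**
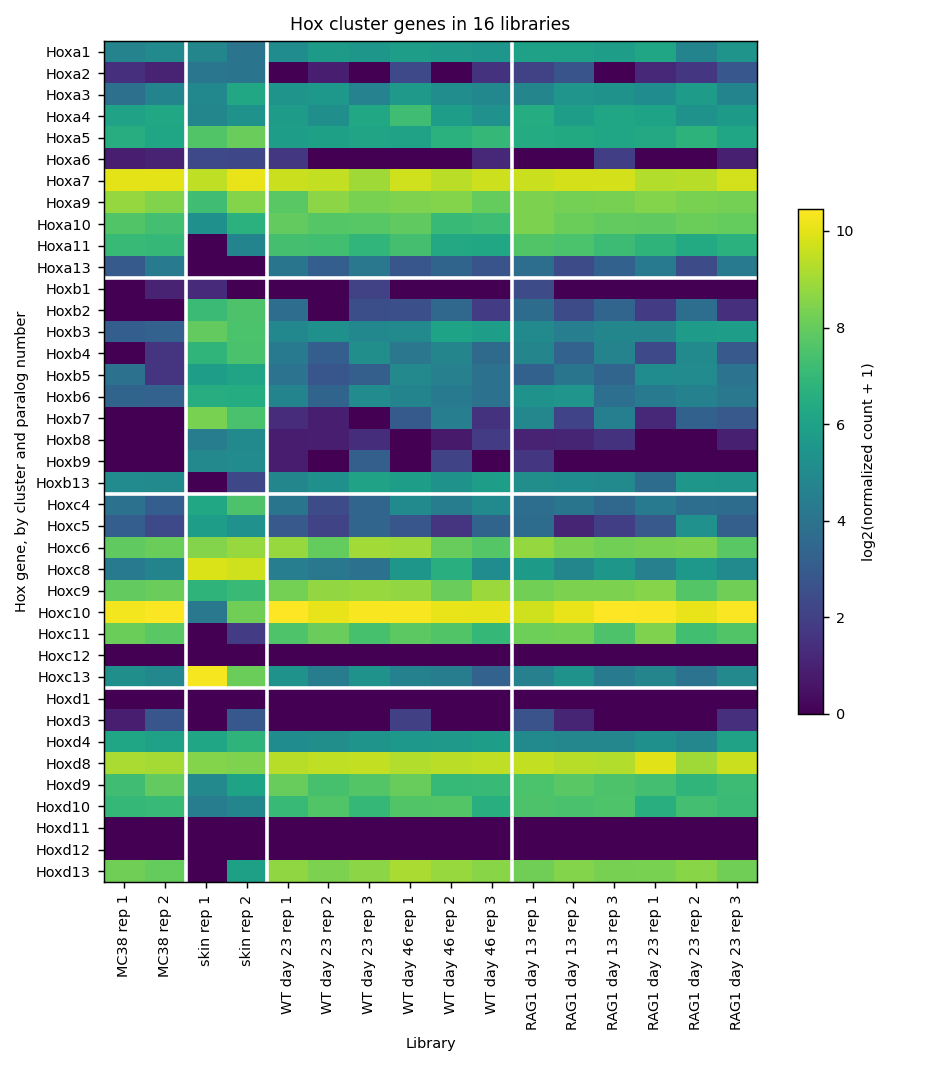
Level of the 39 members (rows, by cluster and paralog number) in the 16 libraries (columns), as log2(normalized count + 1), with white lines between clusters and between MC38, skin, WT and RAG1-/- labelled tumors. The tumor columns resemble the MC38 columns, and both skin columns stand apart in Hoxb2 to Hoxb9, Hoxc8 and Hoxc13.

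Against MC38, anterior and middle Hoxb genes were the members that rose in tumors. Of 29 members tested 4 were higher and 1 lower (limma, over 14708 genes), beside 18.2% and 9.43% of all genes, so neither count exceeded the background. Paralogs 9 to 13 had 0 of 12 past the threshold in limma, edgeR and DESeq2, and 1 of them (Hoxd13) had an unadjusted p under 0.05 in limma, as had 11 of the 29 members and 38.1% of all tested genes. The 10 untested members were Hoxa2, Hoxa6, Hoxb1, Hoxb8, Hoxb9, Hoxd3 and the 4 without reads.

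Hoxb4, a trunk and blood stem cell gene, had 0 and 1.96 normalized counts in MC38 and 3.93 to 34.9 in tumors (median 17.9), so the groups did not overlap (log2 fold change 3.22, SE 0.69, adjusted p = 0.00183). Hoxb3 had 7.70 and 8.80 in MC38 and 21.1 to 65.1 in tumors (median 31.1), again without overlap (2.00, SE 0.37, adjusted p = 5.17e-04). Hoxb2 was at 0 to 12.8 in tumors (median 4.82) and at least 4.34-fold higher than in MC38 (adjusted p = 0.0352). Hoxb7 was at 0 to 27.8 (median 4.98) and at least 6.26-fold higher in the same way (lower limit 5.01, adjusted p = 0.0380). For Hoxb2 and Hoxb7 some tumors had no read either, so their groups touched. With 0 reads in MC38, both passed the filter only through the tumors and could only be called higher. Hoxa7 fell by 0.51 on the log2 scale (SE 0.17, adjusted p = 0.0281), from 1045 and 1046 to 505 to 871 (median 776), without overlap, all from limma. Hoxc8 was at 14.3 to 96.7 (median 31.8) and did not pass (0.59, adjusted p = 0.318).

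**Figure D5:**
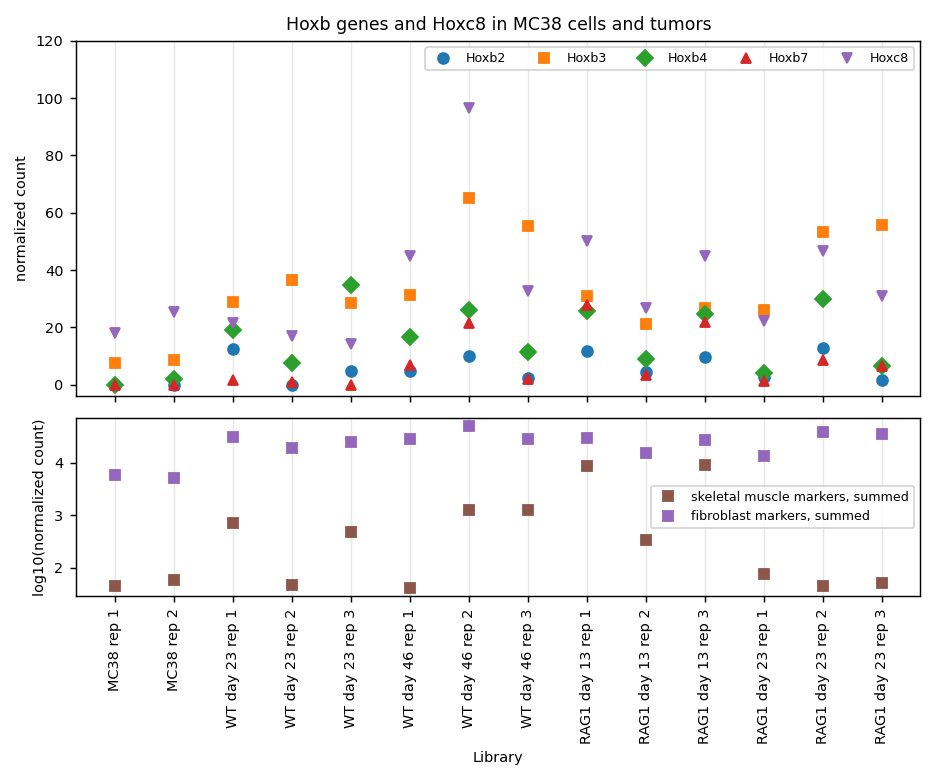
Normalized counts of Hoxb2, Hoxb3, Hoxb4, Hoxb7 and Hoxc8 in the MC38 and tumor libraries (upper panel), and the summed level of 8 skeletal muscle and 8 fibroblast markers as log10 of the normalized count (lower panel). Hoxb7 is highest in RAG1-/- labelled tumors 1 and 3 of day 13 and in WT tumor 2 of day 46, and the muscle markers are highest in the first pair.

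The tumors with the most Hoxb7 were replicates 1 and 3 of day 13 labelled RAG1-/- (27.8 and 21.9 normalized counts) and WT replicate 2 of day 46 (21.5), with at most 8.51 in the other 9. In these libraries the 8 skeletal muscle markers summed to 8630.4, 9015 and 1271, where the other tumors ranged from 42.0 to 1261. The 1261 belonged to WT replicate 3 of day 46, where Hoxb7 was at 1.88. Muscle sums therefore did not separate WT replicate 2 of day 46 from the rest. The 6 endothelial and the 6 adipocyte markers had their highest sums in the tumors with the most Hoxb7. The endothelial sum reached 1246 in WT replicate 2 of day 46 and at most 819 in the other 9 tumors. The adipocyte sums were 644, 472 and 559 in the order above and at most 426 in the other 9. Leukocyte and fibroblast sums did not have the same top tumors. The leukocyte sum was the lowest of the tumors in day 13 replicate 1 (2501). The fibroblast sum was higher in RAG1-/- labelled replicate 2 of day 23 (37801) than in day 13 replicates 1 and 3 (29766 and 26481). WT replicate 2 of day 46 also had the highest sum of the 8 fibroblast markers (49272, where tumors ranged from 13668 and MC38 had 5159 and 5803) and the highest Hoxc8 and Hoxb3 of the tumors. In the fit of tumors against MC38, 6 of 8 fibroblast, 6 of 6 endothelial and 6 of 7 leukocyte markers were higher in tumors, as were 2 of 7 tested skeletal muscle, 1 of 3 adipocyte and 0 of 6 keratinocyte markers. Of all tested genes 18.2% were higher there. The part of such cells in the Hoxb values was not tested. Without replicates 1 and 3 of day 13, an alternative chosen after the marker sums were seen, Hoxb3 and Hoxb4 remained called, Hoxb2 and Hoxb7 fell under the filter, and Hoxa7 missed the threshold (adjusted p = 0.0663). Hoxb2 and Hoxb7 also missed the threshold without day 13 replicate 1 alone (adjusted p = 0.0525 and 0.0590), without day 13 replicate 3 alone (0.0512 and 0.0603) and without WT replicate 2 of day 46 (0.0528 and 0.0545). Hoxb7 alone missed it without WT replicate 1 of day 23 (0.0517) and RAG1-/- labelled replicates 2 and 3 of day 23 (0.0507 and 0.0542), and Hoxb2 was under the filter without the former of these. Without MC38 replicate 1, Hoxb3 and Hoxb5 were higher, Hoxb4 missed the threshold (adjusted p = 0.0915) and no member was lower. Without MC38 replicate 2, Hoxb3 and Hoxb4 were higher and no member was lower.

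At the posterior end, the tumors lay close to MC38. Hoxc10 ranged from 841 to 1404 (median 1207), around the 1224 and 1329.5 of the cells (log2 fold change -0.10, SE 0.16, adjusted p = 0.689). Hoxc11 ranged from 124 to 342 (-0.22, SE 0.28, adjusted p = 0.611) and Hoxa11 from 76.6 to 193 (-0.05, SE 0.26, adjusted p = 0.912). Hoxd13 ranged from 290.3 to 552 (median 377) and had the smallest p of paralogs 9 to 13 without passing (0.44, SE 0.17, adjusted p = 0.0649). It did pass with the WT tumors alone (adjusted p = 0.0176) and without WT replicate 3 of day 46 (adjusted p = 0.0355). Hoxb13 ranged from 11.8 to 65.0. A p that misses the threshold does not show that these levels are equal.

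The tumors were also set against skin, with the same skin libraries as before. Posterior members were above and anterior and middle members below their skin level. Of 29 members 12 were higher and 12 lower in tumors (limma, over 16158 genes), beside 25.2% and 36.6% of all genes. Paralogs 9 to 13 had 10 of 12 higher, 1 lower (Hoxc13) and 1 not past the threshold (Hoxa9), with a median log2 fold change of 3.03, or 2.60 when Hoxa13, which had no read in skin, is set to its bound. Paralogs 4 to 8 had 1 of 13 higher and 9 lower, and paralogs 1 to 3 had 1 of 4 higher and 2 lower. The median over all genes was -0.18. Without skin replicate 2, 12 members were higher and 10 lower, and without replicate 1 12 and 12.

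The largest rise was that of Hoxc11, from 0 and 2.55 in skin to a median of 194 (log2 fold change 6.81, SE 0.39, adjusted p = 8.01e-10 from limma). Hoxd13 rose by 5.56 (SE 0.83, adjusted p = 2.79e-05), from 0 and 61.2 to a lowest tumor of 290.3, and Hoxa11 by 4.61 (SE 0.71, adjusted p = 3.42e-05). Every tumor exceeded both skin libraries in each of these genes. Leaving out skin replicate 1 reduced Hoxd13 to 2.58 and Hoxa11 to 2.24, and leaving out replicate 2 raised them to 8.54 and 6.97, all past the threshold. Hoxb13 rose by 4.11, Hoxc10 by 4.01, Hoxd10 by 2.66 and Hoxd9 by 1.94. Without skin replicate 1 or 2 the value was 2.01 or 6.01 for Hoxc10, 2.98 or 5.25 for Hoxb13, 1.37 or 2.52 for Hoxd9 and 5.90 or 7.73 for Hoxc11, all past the threshold. Hoxa13 was at least 5.83-fold higher in tumors.

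Lower in tumors than in skin were Hoxb7 (log2 fold change -5.39, SE 0.77, adjusted p = 1.66e-05), Hoxb2 (-4.76, SE 0.77, adjusted p = 6.04e-05), Hoxc8 (-4.70, SE 0.39, adjusted p = 4.63e-08) and Hoxc13 (-4.60, SE 0.52, adjusted p = 1.33e-06), all from limma. The log2 fold change was -3.14 for Hoxb4, -2.97 for Hoxc4, -2.69 for Hoxc5 and -2.49 for Hoxb3. Hoxc5 missed the threshold without skin replicate 1 (adjusted p = 0.0604). Hoxc13 was at -3.49 without skin replicate 1 and -5.71 without replicate 2, and Hoxc4 at -3.60 and -2.33, all past the threshold. The highest tumor lay below the lower skin library for every member called lower except Hoxc5. These members were already chosen as called lower on the same values. How many of all genes separated was not counted, here or wherever groups are said not to overlap. Hoxc5 reached 38.3 in 1 tumor, the level of skin replicate 2 (38.2). The scale again moved the split over all genes, from 40.8% higher among those called to 60.7% at equal upper quartiles, with 14 members higher and 11 lower and no called member changing sign.

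Between tumor groups, which the study compared to follow the immune system's effect over time, no member passed the threshold. The limma count was 0 of 29 for WT against RAG1-/- labelled tumors at day 23 (all genes, 0.231% higher and 0.0475% lower), for both days together (0.570% and 0.142%), for WT day 46 against day 23 (0% and 0%) and for day 23 against day 13 of the tumors labelled RAG1-/- (0% and 0%). At an unadjusted p under 0.05 there were 2, 2, 4 and 2 members, beside 11.2%, 11.4%, 8.55% and 11.7% of all genes, and edgeR and DESeq2 on the recovered reads also called 0 members in each. No member passed the test of whether the change with time differed between genotypes, in which day 46 against 23 in WT is set against day 23 against 13 in the other group, so the spans differ. At an unadjusted p under 0.05 in limma were Hoxb7 (difference of log2 fold changes 3.63, SE 1.32, adjusted p = 0.485) and Hoxc8 (1.83, SE 0.64, adjusted p = 0.482), beside 8.67% of all genes. For that test edgeR and DESeq2 also called 0 members, and over all genes limma and edgeR called 0% and DESeq2 36 higher and 22 lower. Over all genes and the pair of time comparisons limma and edgeR called 0, with 1261 and 1722 genes at an unadjusted p under 0.05 in limma, and DESeq2 called 25 higher and 16 lower in the WT tumors and 90 higher and 116 lower in those labelled RAG1-/-.

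The members with the smallest p are given as values. Over both days, WT tumors of days 23 and 46 were set against labelled RAG1-/- tumors of days 13 and 23. Genotype and day therefore cannot be told apart in that contrast. Over both days Hoxa10 ranged from 132 to 243 in the WT tumors (median 210.0) and from 237 to 331 in those labelled RAG1-/- (median 263), with a slight overlap (log2 fold change -0.48, SE 0.16, adjusted p = 0.247 from limma). Its two-sided exact permutation p of 0.00866, 6 tumors against 6, is not adjusted, and the smallest that this design allows is 0.00216. Hoxd13 ranged from 332 to 552 in WT and from 290.3 to 383 in the other group (0.35, adjusted p = 0.315, exact permutation p = 0.0130), and Hoxc9 had 0.35 (adjusted p = 0.486, exact permutation p = 0.0931). At day 23, Hoxb5 was at 14.8, 5.97 and 7.92 in WT and at 32.7, 31.9 and 14.6 in the tumors labelled RAG1-/- (-1.38, adjusted p = 0.329). Hoxd9 had 0.59 and Hoxc9 0.49 there (adjusted p = 0.440 and 0.508). At this shared day Hoxa10 had -0.20 and Hoxd13 0.20 (adjusted p = 0.790 and 0.740 from limma).

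Between day 23 and day 46 of the WT tumors, Hoxc8 was at 21.4, 17.0 and 14.3 and at 45.0, 96.7 and 32.6 normalized counts, without overlap (log2 fold change 1.54, SE 0.45, adjusted p = 0.396 from limma). Hoxc4 was at 15.5, 4.26 and 9.51 and at 30.3, 20.8 and 30.1 (1.51, adjusted p = 0.444), and Hoxb7 had 2.26 (adjusted p = 0.538). The muscle markers were at 47.7 to 724 at day 23 and 42.0 to 1271 at day 46, and the fibroblast markers at 19103 to 30788 and 28195 to 49272, and their part in these values was not tested. In the tumors labelled RAG1-/-, Hoxa11 was at 193, 181 and 143 at day 13 and at 111, 83.0 and 100.3 at day 23, without overlap (-0.80, SE 0.30, adjusted p = 0.305). Hoxb5 had 1.13 (adjusted p = 0.421) and Hoxc5 1.56 (adjusted p = 0.487).

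Noncoding genes of the clusters were listed apart from the members. Of the 11 such genes chosen 7 were tested in MC38 against skin, and 3 were higher (Hoxa11os, Hoxaas3, Hoxd3os1), 1 lower (Hoxb3os) and 3 not past the threshold. The shares over all genes were 20.8% higher and 41.2% lower. Hoxa11os, antisense to Hoxa11, was at 199 and 171 normalized counts in MC38, 0 and 10.2 in skin and 92.3 to 236 in tumors (MC38 over skin 5.79, SE 1.17, adjusted p = 0.0105 from limma). Hotair, which lies in the Hoxc cluster, was at 12.8 and 21.5 in MC38 and 0 and 8.92 in skin (2.49, adjusted p = 0.122). Hoxb3os was at 0.856 and 0 in MC38 and at 40.2 and 44.6 in skin, and its adjusted p was 0.00109. Between tumors and MC38, 0 of the 5 tested passed in limma. The strand setting of the read counting is not given in the sources used here. The last 500 exonic bases of Hoxa3, Hoxa7 and Hoxb2 lie wholly opposite an antisense gene, those of Hoxb3 to 98.6% and of Hoxa4 to 51.0%, and reads of these partners cannot be told apart. Hoxd3 and Hoxd4 share 62.3% and 52.3% of their exonic bases on the same strand, so that the low Hoxd3 counts are uncertain.

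Hox proteins bind DNA together with TALE cofactors of the Pbx, Meis and Pknox families. Against skin, 3 of the 9 cofactor genes stood higher in MC38 (Meis2, Meis3, Pbx3), 4 lower (such as Meis1 and Pbx2) and 2 not past the threshold. Among all tested genes 20.8% were higher and 41.2% lower in this comparison, and 18.2% and 9.43% in tumors against MC38. Meis2 had a mean of 761 normalized counts in MC38 and 312 in skin (log2 fold change 1.28, adjusted p = 0.00195 from limma). In tumors Pbx2 was higher than in MC38 (0.68, adjusted p = 0.0222) and Meis2 lower (-0.47, adjusted p = 0.0316, all from limma), and 6 of the 8 tested did not pass. None of the 6 ParaHox genes, the relatives of the clusters that include the gut factor Cdx2, reached the filter in any of these comparisons.

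Polycomb proteins keep Hox genes silent and trithorax proteins keep them active. Of 17 Polycomb genes 6 had risen in MC38 relative to skin, among them Ezh2, which writes the silencing mark (log2 fold change 0.78, adjusted p = 0.00456), Phc1 (1.94, adjusted p = 0.00196) and Bmi1 (1.57, adjusted p = 7.89e-04), 4 were lower, such as Jarid2 (-2.73, adjusted p = 5.37e-04), and 7 did not pass. Of 8 trithorax and H3K27 demethylase genes 2 were higher (Wdr5, Ash2l) and 3 lower (Kdm6a, Kdm6b, Kmt2b). Both lists stand beside 20.8% of all genes higher and 41.2% lower in MC38 against skin. In tumors against MC38 1 Polycomb gene was lower (Phc3, -0.55, adjusted p = 0.0220), and 0 of the 8 trithorax and demethylase genes passed in limma.

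Other positional transcription factors give a second view of the same question. Of 14 such genes 12 were tested in MC38 against skin, with 5 higher and 4 lower, beside 20.8% and 41.2% of all genes. Pitx1, which specifies the hind limb, was at 58.2 and 108 normalized counts in MC38 and at 8.04 and 3.82 in skin (log2 fold change 3.60, SE 0.53, adjusted p = 0.00370 from limma). En1, a gene of dermis and limb ectoderm, had a mean of 577 in MC38 and 124 in skin (2.28, adjusted p = 0.00416), and Shox2, a limb skeleton gene, 1176 and 244 (2.33, adjusted p = 0.00337). Emx2 also rose. Tbx5, which specifies the forelimb, was lower (-4.18, adjusted p = 0.00337), with a mean of 2.20 in MC38 and 55.1 in skin, and so were Lhx2 and Msx2. Tbx4, under the filter, lay in the opposite direction to Pitx1, at 0 in both MC38 libraries and at 8.04 and 3.82 in skin. In tumors Pitx1 ranged from 57.5 to 131 and did not differ detectably from MC38 (0.11, SE 0.30, adjusted p = 0.836), and Hand2 was the only gene of this list that passed (0.97, adjusted p = 0.0117).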

How the data were processed

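The deposited values are a signal: gene counts divided by DESeq2 size factors. The authors trimmed with Cutadapt and Trimmomatic (reads under 22 nucleotides removed), aligned with STAR and then Bowtie2 to mm10, kept primary alignments, removed rRNA and counted with HTSeq-count. The strand setting, annotation and tool versions are not given in the sources used here. All values were whole multiples of 1 read (tolerance 0.01 read), so reads were recovered. A table of 6 further per-sample columns (antibody-treated tumors) matched no label and was not analysed here. Groups came from the labels.

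The main test was limma 3.58.1 (R 4.3.3) on log2(normalized count + 1), genes averaging at least 5 normalized counts, Benjamini-Hochberg adjusted over all tested genes, threshold 0.05; this scale understates changes of low genes. edgeR 4.0.16 and DESeq2 1.42.0 on the recovered reads were alternatives. The scripts were tested on simulated data. Ratio intervals are exact at 95%. A fold given as at least a value divides the pooled level by the floor of 3 reads. It is not a confidence limit, and the exact lower limits were smaller. Members given in this way had no read in 1 group, passed the filter only through the other and could only be called in that direction. Gene positions are from GENCODE M21 (GRCm38). Figures used matplotlib 3.10.9. Members and lists were chosen with earlier results of these data known. For each comparison the text names up to 8 members per direction with the largest fold change among those past the threshold, or, where none passed, the 3 with the smallest p, and others by level. Some genes of the lists are counted but not reported by name here.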

Additional observations from a re-analysis of the deposited data

Results flagged for a closer look

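In the 6 tumors labelled RAG1-/-, Hoxb13 was lowest in replicate 1 of day 23, at 11.8 normalized counts, far from the other 5, which ranged from 30.5 to 44.7. Hoxd4 was highest in replicate 3 of day 23, at 65.0, and the other 5 ranged from 27.6 to 36.7. Dixon's test at the 95% level marked these 2 of 58 groups of 6 tumors, and chance marks about 5% of groups.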

How the results depend on the processing

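The number of members called in MC38 against skin ranged from 2 to 10 higher and from 8 to 14 lower when 1 library at a time was left out, and a lone sample is then assumed to vary like the other group. In tumors against MC38 the higher members ranged from 2 to 5 and the lower from 0 to 2 in the same way. There, 2 were higher with a pseudocount of 5, with no filter and without RAG1-/- labelled tumors 1 and 3 of day 13 (chosen after seeing the data), and 1 was higher with a mean of at least 20. The lower count was 0 with no filter, with all 16 libraries in the fit, with RAG1-/- labelled tumors only and without those 2 tumors, and 2 at equal upper quartiles. As a share of members above 5 normalized counts, in place of counts, paralogs 9 to 13 made up 47.1% in MC38, 45.8% and 43.4% in WT tumors of day 23 and 46, and 41.7% and 42.3% in those labelled RAG1-/- of day 13 and 23. The correlation of tumors with MC38 was 0.893 with a pseudocount of 0.1. The causes were not tested. No named member changed its sign in any alternative run. Summaries did turn: in MC38 against skin the median of the tested members went from -0.54 to 0.24 with all 16 libraries in the fit, that of all genes from -0.40 to 0.11 at equal upper quartiles, and more members were higher than lower (10 and 8) without skin replicate 2. In tumors against skin the median of all genes went from -0.18 to 0.31 at equal upper quartiles. Equal upper quartiles moved the median of all genes by -0.13 in tumors against MC38, where 51.5% of the called genes were then higher in place of 65.9%.

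The replicate numbers were checked as a block. Deviations of same-numbered samples correlated at -0.22 to 0.19. With so few samples per group this check cannot exclude a shared batch. With the replicate block 11 members were higher and 15 lower in MC38 against skin, 3 and 1 in tumors against MC38 and 12 and 12 in tumors against skin, and 0 were called between tumor groups.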
